A study of Mus musculus with 4 samples.

Results

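The 10 genes described here belong to the bone morphogenetic protein (BMP) pathway: the ligands Bmp4 and Bmp2, the extracellular regulators Bmper and Nog, the receptor Bmpr2, the inhibitory Smads Smad6 and Smad7, and the response genes Id1, Id2 and Id3. They were taken by symbol from the gene list of the deposited matrices, where each was found once, and make up 10 of 32285 genes. The cells came from the aorta-gonad-mesonephros region (AGM) of C57BL/6J mouse embryos at embryonic day 11.5 and had been sorted for CD31, a surface protein of endothelial and some blood cells. A second sort on TMRM, a dye taken up by mitochondria according to their membrane potential, split them into MMPlow cells, with low dye intensity, and MMPhigh cells, with high intensity, and 2 single-cell libraries represent each fraction. All groups share the strain, tissue, stage and CD31 sort and differ by label only in TMRM intensity. The study was made to find the transcriptional basis on which mitochondrial activity sorts haematopoietic stem cell function.

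BMPs are secreted dimers that bring type I and type II receptors together on the receiving cell, and the activated receptors phosphorylate Smad proteins that enter the nucleus. Smad6, Smad7 and the Id genes are among the direct targets of this signal in many cell types, and Smad6 and Smad7 in turn dampen it. In the AGM, Bmp4 is known from the mesenchyme under the aorta, and blood stem cells arise from the aortic endothelium. The questions taken up below are which cells held transcripts of the ligands and antagonists, which held those of the targets, and whether the levels differed between the fractions.

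The unit throughout is the unique molecular identifier (UMI), a tag that marks 1 captured transcript. After filters on depth and mitochondrial share and removal of called doublets, 41919 cells were retained, namely 15615 (MMPlow 1), 18513 (MMPlow 2), 4403 (MMPhigh 1) and 3388 (MMPhigh 2). Over all retained cells the median depth was 3079 to 3685 UMIs in 3 libraries and 23538.5 UMIs in MMPhigh 2, which stands apart in this median. Between 7 and 82 retained barcode sequences were shared by any pair of libraries. The labels do not say whether the libraries of a fraction came from separate embryos, so every p-value measures only the spread between these libraries. Clustering gave 29 clusters, of which 20 were named in 10 classes from marker genes, each called "-like", and 9 stayed unnamed. Endothelial-like cells made up 45.8% and 44.6% of the MMPlow libraries and 0.341% and 0.413% of the MMPhigh libraries. Although both fractions had been sorted for CD31, the summed level of 12 endothelial markers over all cells was 2921 and 2870 CPM in MMPlow and 132 and 110 CPM in MMPhigh, where CPM is a count scaled to a total of 1000000 UMIs. In MMPhigh neural, macrophage and unnamed clusters were the main groups. Unnamed cells made up 59.0% of MMPhigh 1 and 25.8% of MMPhigh 2. Median UMIs in MMPlow 1, MMPlow 2, MMPhigh 1 and MMPhigh 2 were 2768, 3144, 15329.5 and 22367.5 in macrophage-like cells. They were 2909, 3740, 3561 and 30746.5 in megakaryocyte-like and 7935, 8984, 5839 and 57408 in erythroid-like cells. Depth thus also differed within these classes. Cells thinned to equal depth are among the alternatives below.

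The promoters of Bmp4, Bmper and Smad6 are shown because the sources of a ligand, an antagonist and an intracellular inhibitor are the subject of the first comparison. RefSeq promoter entries (GRCm38.p6) were used for 6 of the 10 genes. That the other genes are without one here does not show that they lack an entry. In the entries for Bmpr2, Id2 and Id3 the start lay inside the annotated gene, and Bmp2, Nog, Smad7 and Id1 are named only. Each sequence below is the 250 bases before the annotated start, read 5′ to 3′ on the gene's strand, with the Smad-binding letters GTCT, or AGAC on the other strand, in capitals. The Bmp4 sequence lies at chr14:46390670-46390919 (minus strand), the Bmper sequence at chr9:23222826-23223075 (plus strand) and the Smad6 sequence at chr9:64022060-64022309 (minus strand).
Bmp4: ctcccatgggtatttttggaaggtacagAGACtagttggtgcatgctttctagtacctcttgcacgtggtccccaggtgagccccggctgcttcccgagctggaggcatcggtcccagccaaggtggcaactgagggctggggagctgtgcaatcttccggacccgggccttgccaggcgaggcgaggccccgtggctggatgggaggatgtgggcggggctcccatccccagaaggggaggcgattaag
Bmper: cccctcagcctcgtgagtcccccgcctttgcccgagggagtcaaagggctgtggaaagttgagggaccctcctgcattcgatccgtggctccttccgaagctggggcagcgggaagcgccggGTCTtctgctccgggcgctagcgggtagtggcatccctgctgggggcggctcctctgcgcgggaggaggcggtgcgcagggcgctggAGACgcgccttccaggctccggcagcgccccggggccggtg
Smad6: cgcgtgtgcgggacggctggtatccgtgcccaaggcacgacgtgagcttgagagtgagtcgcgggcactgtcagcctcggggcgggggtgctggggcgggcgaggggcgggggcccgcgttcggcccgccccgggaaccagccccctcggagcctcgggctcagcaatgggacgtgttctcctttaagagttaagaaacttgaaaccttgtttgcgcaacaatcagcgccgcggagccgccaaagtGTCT
GTCT or AGAC occurred 1 time in the Bmp4 window, 2 times in that of Bmper and 1 time in that of Smad6. These letters occur in 82.9% of 32851 promoter windows of this length, so their presence sets none of the genes apart. The letters GGCGCC, part of a GC-rich element described for BMP-responsive Smads, occurred in none of these windows and in 9.6% of all windows, and no match says only that the letters are not in this window. No binding or chromatin data accompany these libraries.

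The sources of the ligands and of Bmper were resolved by summing UMIs per cluster in each MMPlow library, where 2 libraries with many cells of most clusters are at hand. Since clusters were formed from the same cells, these levels are a description and carry no test, and Bmper, Smad6 and Id3 were themselves among the genes used for clustering. A cluster is called here by its leading genes, those with the largest fold over the other cells.

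Bmp4 was highest in the mesenchymal-like cluster led by Acta2, a smooth muscle actin, at 72.2 and 65.2 CPM in MMPlow 1 and 2. Next came an endothelial-like cluster led by Tll1, Flrt2 and Col23a1, at 54.0 and 57.8 CPM, and the mesenchymal-like cluster led by Tmem132c, Epha3 and Prrx1, at 57.7 and 51.3 CPM. These last clusters did not differ beyond their spread, whereas both were below the Acta2-led cluster in each library. An unnamed cluster led by Wt1, a transcription factor of the mesothelium and the developing kidney and gonad, held 45.5 and 52.9 CPM. The mesenchymal-like cluster led by the cartilage collagen Col2a1 held 39.5 and 45.2 CPM, and every cluster below it averaged at most 20.5 CPM. Within the endothelial-like class the gene was uneven, at 9.05 and 10.7 CPM in the cluster led by Gja5, an arterial gap junction gene, and at 2.15 and 7.85 CPM in the cluster led by Stab2. By share of transcripts rather than level, endothelial-like cells held 52.3% ± 0.323 (SD, n = 2) of all Bmp4 UMIs in MMPlow and mesenchymal-like cells 22.1% ± 1.70. The same classes held 44.8% and 8.55% of all UMIs, and the Tll1-led cluster alone held 32.7% of Bmp4 with 11.6% of all UMIs. The antisense genes Gm15217 and Gm15222 overlap Bmp4 in the annotation. Across the retained cells Gm15222, the one with more UMIs, was counted 161 and 223 times in the MMPlow libraries and 34 and 83 times in the MMPhigh ones, against 1230, 1707, 493 and 1083 for Bmp4, and whether the counting used strand is not given in the sources used here.

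Bmp2 was concentrated in the Stab2, Oit3 and Gata4-led endothelial-like cluster, with 97.3 and 91.2 CPM, and in the Acta2-led mesenchymal-like cluster, with 57.6 and 47.1 CPM. Both values of the Stab2-led cluster were above both values of the Acta2-led cluster, and all other clusters averaged at most 15.1 CPM. The Stab2-led cluster held 26.2% of the Bmp2 UMIs of MMPlow with 2.31% of all UMIs. Bmp4 and Bmp2 therefore had different endothelial-like sources in these libraries, since the Tll1-led cluster that was high in Bmp4 held 6.90 and 7.0 CPM of Bmp2.

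Bmper encodes a secreted BMP-binding protein that can inhibit or enhance signalling. In MMPlow it was highest in the Col2a1-led mesenchymal-like cluster, at 175 and 154 CPM. The Acta2-led cluster followed at 112 and 120 CPM, and the Wt1-led cluster at 52.6 and 64.1 CPM, and these 3 clusters did not overlap with one another. The Tmem132c-led mesenchymal-like cluster, rich in Bmp4, held only 4.57 and 7.85 CPM of Bmper. Mesenchymal-like cells held 62.0% ± 5.72 (SD, n = 2) of all Bmper UMIs in MMPlow, and the Col2a1-led cluster alone held 48% with 4.26% of all UMIs. The highest level among endothelial-like clusters was in the Gja5-led cluster, with 27.2 and 26.4 CPM.

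Nog encodes noggin, which binds BMPs outside the cell and keeps them from their receptors. It was nearly undetected, with 48 UMIs in MMPlow and 132 in MMPhigh over all retained cells. In MMPlow its highest level was in the muscle progenitor-like cluster led by Ttn and Actc1, at 7.17 and 3.94 CPM, which rest on 6 and 5 UMIs. The next was the neural cluster led by Sox2ot, at 1.10 and 2.93 CPM. Its whole class held 6 Nog UMIs over both MMPlow libraries. The values of these clusters did not overlap, but counts this low do not settle their order. No order is read below them. In MMPhigh the same muscle cluster held 6.49 and 6.76 CPM, from 6 and 27 UMIs.

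**Figure D1:**
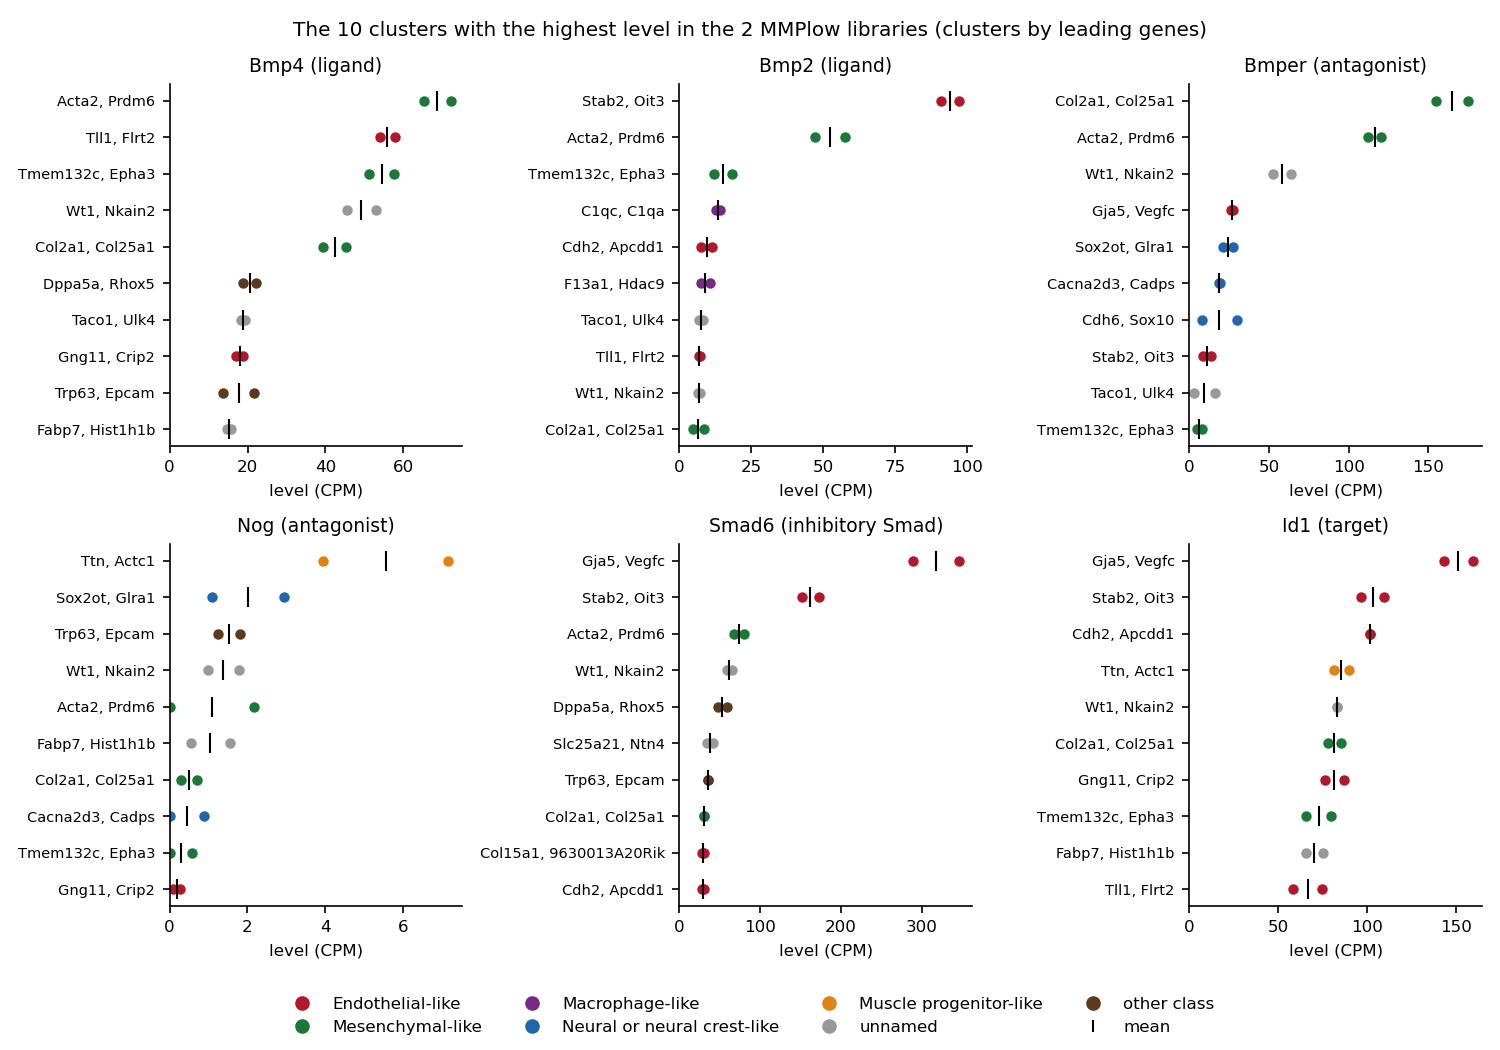
Levels of Bmp4, Bmp2, Bmper, Nog, Smad6 and Id1 in MMPlow, in CPM, for the 10 clusters with the highest mean of each gene, named by leading gene; the 2 dots are the 2 MMPlow libraries and the tick is their mean. Bmp2 and Smad6 are led by endothelial-like clusters, Bmper by the Col2a1-led and Bmp4 by the Acta2-led mesenchymal-like cluster, and Nog by muscle progenitor-like cells.

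Bmpr2, Smad6, Smad7 and Id1 were each highest in the same endothelial-like cluster, which led neither ligand. Bmpr2, the type II receptor for BMPs, was highest in the Gja5, Vegfc and Lama3-led endothelial-like cluster, at 468 and 478 CPM, and lowest in erythroid-like cells, at 25.6 ± 4.64 CPM (SD, n = 2). Smad6, which blocks receptor-activated Smads, reached 346 and 289 CPM in the same Gja5-led cluster and 172 and 152 CPM in the Stab2-led cluster, with no overlap between them. The remaining endothelial-like clusters held 10.9 to 30.6 CPM of Smad6, below the 80.0 and 67.4 CPM of the Acta2-led and the 64.6 and 59.1 CPM of the Wt1-led cluster. The Gja5-led cluster held 20.2% of the Smad6 UMIs of MMPlow with 2.01% of all UMIs. Smad7, the other inhibitory Smad, which also restrains TGF-beta signalling, was likewise highest in the Gja5-led cluster, at 206 and 213 CPM, and the next clusters, led by Stab2 and Col15a1, overlapped with each other at 70.1 to 90.8 CPM.

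The Id proteins are helix-loop-helix factors without a DNA-binding domain that hold partner factors inactive. Id1 was highest in the Gja5-led cluster, at 143 and 160 CPM, followed by the Stab2-led cluster at 96.6 and 110 CPM and the Cdh2-led endothelial-like cluster at 102 in each library. The last of these did not separate from the Stab2-led cluster. Id1 was lowest in the Cacna2d3-led neural cluster, at 14.0 ± 4.89 CPM (SD, n = 2). Id2 was highest outside the endothelium, in the Wt1-led cluster, at 142 and 150 CPM, and the Tmem132c-led and Col2a1-led mesenchymal-like clusters followed at 111 CPM on average each. Id3 had no single leading cluster, since the Gng11-led endothelial-like cluster, at 349 and 383 CPM, overlapped with the Acta2-led cluster, at 344 and 380 CPM. Id2 and Id3 were lowest in erythroid-like cells, at 4.72 ± 3.52 and 19.9 ± 0.158 CPM (SD, n = 2).

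Endothelial-like cells held 57.7% to 63.3% of the UMIs of Bmp2, Bmpr2, Smad6, Smad7, Id1 and Id3 in MMPlow, against 44.8% of all UMIs, and 44.2% of those of Id2. As classes, germ cell-like cells had the highest level of Smad6 and Smad7, but this rests on 5 and 8 UMIs of Smad6 and on 6 and 11 UMIs of Smad7. Under the looser cell filter and without doublet removal, endothelial-like cells were highest in Smad7, at 63.9 and 62.7 CPM, so that order was not stable. Under the stricter cell filter and at clustering resolution 0.5, germ cell-like cells were too few or formed no cluster, so they could not be ranked. The highest class there, endothelial-like for Smad7 and mesenchymal-like for Smad6, says nothing about the order. In the other alternatives germ cell-like cells stayed highest in Smad6. In MMPhigh, with 29 endothelial-like cells in all, the largest shares of UMIs lay with other classes than in MMPlow. Mesenchymal-like cells held 44.2% ± 4.09 (SD, n = 2) of Bmp4, macrophage-like cells 45.6% ± 5.43 of Bmp2, and neural or neural crest-like cells 43.9% ± 2.74 of Bmper and 46.5% ± 0.806 of Nog, against 7.51%, 16.8% and 27.2% of all UMIs. Except for Bmp4, levels did not follow these shares. Mesenchymal-like cells held 55.6 CPM of Bmper on average, against 31.1 CPM in neural cells. They held 17.1 CPM of Bmp2, against 12.2 CPM in macrophage-like cells. The few endothelial-like cells of MMPhigh held more Bmp2, 46.4 ± 19.2 CPM (SD, n = 2), from 29 UMIs. Muscle progenitor-like cells held 6.62 CPM of Nog, against 1.52 CPM in neural cells.

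**Figure D2:**
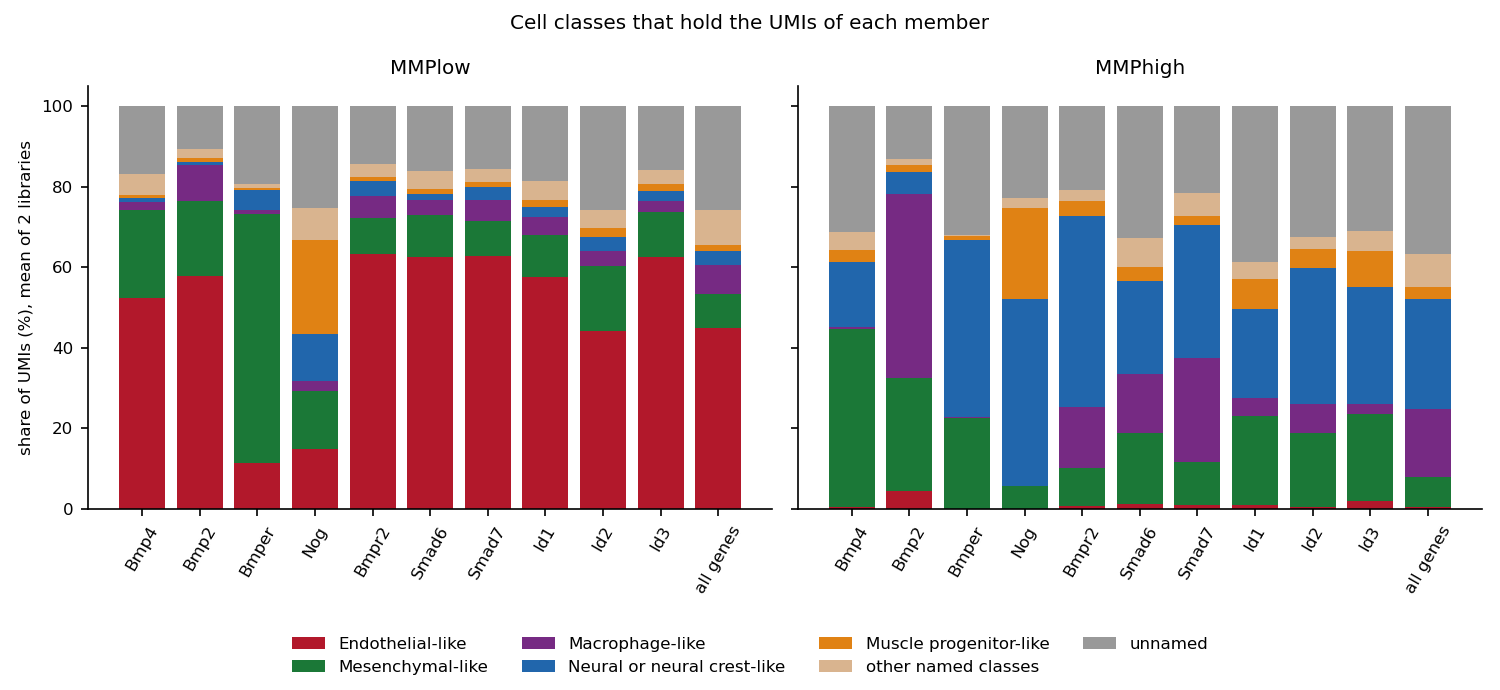
Share of each gene's UMIs, in percent, held by each cell class in MMPlow and MMPhigh (mean of 2 libraries), with the share of all UMIs as the reference bar. Endothelial-like cells held 52.3% of Bmp4 but 11.3% of Bmper in MMPlow, and mesenchymal-like cells 62.0% of Bmper.

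The share of cells with a transcript was compared after each cell was thinned to 2000 UMIs, so that depth was equal. In MMPlow, Bmper was detected in 13.8% and 13.5% of mesenchymal-like cells and in 0.726% and 0.872% of endothelial-like cells. Macrophage-like cells, which should lack Bmper and were taken as its background, gave 0.359% and 0.381%, at median depths of 2768 and 3144 UMIs before thinning. Bmp4 was detected in 8.74% and 8.98% of mesenchymal-like and 4.08% and 3.90% of endothelial-like cells, against a macrophage background of 1.58% and 0.889%. Smad6 was detected in 7.88% and 7.84% of endothelial-like cells against 3.09% and 2.60% of macrophage-like cells. All these shares were above those of macrophage-like cells in both libraries, as values without counting error beside them. The margin was narrow for Bmper in endothelial-like cells. Macrophage-like cells need not lack Smad6, which was detected in 2.40% of them on average in MMPhigh. The Nog share in endothelial-like cells, at 0.0279% and 0%, could not be set apart from none of 1392 and 1575 macrophage-like cells.

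In the endothelial-like cells of MMPlow, pooled over their clusters, detection of the targets went together. Id1 was detected in 18.6% and 19.9% of cells with a Smad6 UMI and in 11.6% and 13.4% of cells without one, with exact 95% binomial intervals of 15.5 to 22.1%, 16.9 to 23.2%, 10.8 to 12.4% and 12.6 to 14.2%, which cover counting error only. Id3 was detected in 40.1% and 46.6% of cells with an Id1 UMI and in 31.7% and 35.2% of cells without one. Smad6 was detected in 5.14% and 5.59% of the Bmp4-positive cells and in 8.0% and 7.93% of the others, so it was lower beside Bmp4 in both libraries, although the intervals overlapped. Beside Bmp2 it was higher, at 13.8% and 11.5% of the Bmp2-positive cells against 7.79% and 7.77% of the others, again with overlapping intervals. Id1 was detected in 9.93% and 18.3% of the Bmp4-positive cells and in 12.2% and 13.7% of the others, with no common direction. In mesenchymal-like cells of MMPlow, Id1 was also detected more often beside Smad6 in both libraries, but the intervals overlapped. Those of Id3 with and without Id1 did not overlap there. Cells are not replicates, so these are descriptions with no test. The endothelial-like class pools clusters of unlike levels. Its Gja5-led cluster was highest in both Smad6 and Id1, and its Bmp4-rich Tll1-led cluster was among those low in Smad6. The part of this pooling in the shares was not tested.

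Over the 29 clusters, with the 4 libraries pooled, the patterns of 8309 genes were set beside those of 4 of the BMP genes as Pearson correlations of log2(CPM + 10). The clusters share libraries and depth, and no p is given. The closest to Bmp4 were Rspo3 (0.86), Loxl2 (0.84) and Crispld1 (0.82), of which Rspo3 encodes a secreted enhancer of Wnt signalling. The closest to Smad6 were Smad7 (0.83), Bmp6 (0.82) and Fbn1 (0.82), and the closest to Id1 were Serpinh1 (0.90), H19 (0.89) and Id3 (0.88). The closest to Nog were Car3 (0.91), Vgll3 (0.91) and Ppp1r14c (0.86), with Nog itself reaching at most 6.26 CPM in a cluster.

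The first comparison of the fractions summed all retained cells of each library. UMI sums were tested gene by gene with edgeR's quasi-likelihood test, with TMM scaling and Benjamini-Hochberg adjustment over all genes, and a gene is called at an adjusted p under 0.05. Of the 10 genes, 7 were called, 6 lower and 1 higher in MMPhigh, beside 53.8% of all 20400 genes tested (27.3% higher and 26.5% lower), so a share of this kind is no result about the pathway. Their median log2 difference was -0.63, against 0.01 for all genes. A sum over all cells cannot tell fewer cells of a type from less RNA per cell.

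Bmp4 stood at 20.1 and 19.5 CPM in MMPlow 1 and 2 and at 12 and 10.3 CPM in MMPhigh 1 and 2. Both MMPhigh values were below both MMPlow values, and the gene fell 1.74-fold (log2 difference -0.80, SE 0.11, edgeR adjusted p = 0.000494). Bmp2 stood at 8.5 and 8.07 CPM against 4.25 and 4.78 CPM, with no overlap (log2 difference -0.84, SE 0.13, edgeR adjusted p = 0.00105). Among the antagonists, Nog rose from 0.360 and 0.297 CPM to 0.826 and 0.937 CPM (log2 difference 1.48, SE 0.29, edgeR adjusted p = 0.00319). Bmper stood at 15.2 and 14.1 CPM against 20.9 and 16.2 CPM and was not called (log2 difference 0.37, SE 0.14, edgeR adjusted p = 0.0552), but it passed at 0.56 (edgeR adjusted p = 0.00251) without MMPhigh 2, at 0.36 (edgeR adjusted p = 0.0254) with the replicate number as a block, at 0.67 (edgeR adjusted p = 0.0155) under the stricter cell filter, at 0.41 (edgeR adjusted p = 0.0236) under the looser one and at 0.35 (edgeR adjusted p = 0.00729) with no filter on low counts. Bmpr2 fell from 201 and 206 CPM to 137 and 152 CPM (log2 difference -0.46, SE 0.09, edgeR adjusted p = 0.00333), and under the stricter cell filter it was not called (-0.15, edgeR adjusted p = 0.131).

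Both inhibitory Smads were lower in both MMPhigh libraries than in either MMPlow library, and Smad6 was called. Smad6 fell from 33.3 and 29.7 CPM to 15.4 and 14.8 CPM, 2.04-fold and without overlap (log2 difference -1.03, SE 0.09, edgeR adjusted p = 4.63e-05). Smad7, at 46.6 and 43.4 against 40.8 and 29.0 CPM, was not called (log2 difference -0.34, SE 0.17, edgeR adjusted p = 0.144), but it was at -0.61 (edgeR adjusted p = 0.000267) without MMPhigh 1, at -0.36 (edgeR adjusted p = 0.0312) with the replicate block and at -0.35 (edgeR adjusted p = 0.00203) with no filter on low counts. Whether Smad6 and Smad7 differ in their change was not tested.

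Of the Id genes, Id1 fell from 60.1 and 64.4 CPM to 38.0 and 29.5 CPM (log2 difference -0.85, SE 0.13, edgeR adjusted p = 0.00145), and Id3 from 183 and 193 CPM to 111 and 77.1 CPM (log2 difference -0.97, SE 0.18, edgeR adjusted p = 0.00542). Id2 was the only one of the 10 whose libraries overlapped, at 53.4 and 60.4 against 66.8 and 56.8 CPM (log2 difference 0.15, edgeR adjusted p = 0.300). A further fit took equally many cells of a class from every library, for the 7 classes tested below, 1390 cells per library, and so also left out the endothelial-like, unnamed, epithelial and granulocyte cells. In it 1 of the 10 genes was called, Id1 at -0.46 (edgeR adjusted p = 0.0302), beside 18% of all genes. The direction turned for Bmp4 (0.01), Bmpr2 (0.08), Smad7 (0.14) and Bmper (-0.13), none of them called. Left-out classes, equal shares and fewer cells cannot be told apart in that fit.

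**Figure D3:**
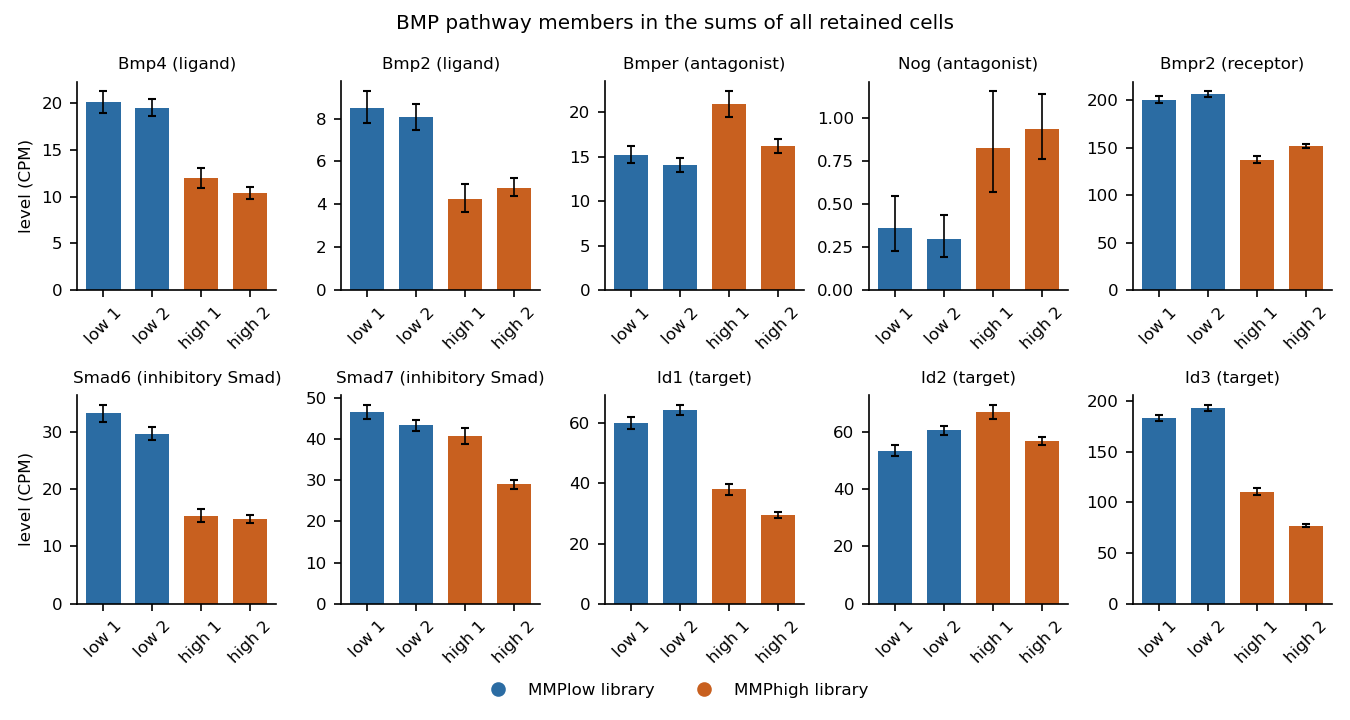
Level of each of the 10 genes in CPM over all retained cells of the 4 libraries; bars start at 0 and lines are exact 95% Poisson intervals, which cover counting error only. Bmp4, Bmp2, Bmpr2, Smad6, Id1 and Id3 are lower in both MMPhigh libraries, Nog is higher in both, and the Id2 libraries overlap.

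The share of thinned cells with a UMI gave the same directions for the called genes. Bmp4 was detected in 3.66% and 3.54% of MMPlow and 2.04% and 1.83% of MMPhigh cells, and before thinning in 6.38%, 7.17%, 5.16% and 10.54%. Smad6 was detected in 5.96% and 5.66% against 2.02% and 2.80%, and Id3 in 26.0% and 28.3% against 16.2% and 11.1%. For 8 of the 10 genes, all but Bmper and Id2, the fractions did not overlap, beside 70.8% of all genes. The exact two-sided permutation test over libraries gave p = 0.333 for each of the 8, the smallest p that 2 against 2 allows. Of the 8, 7 were lower in MMPhigh, beside 41% of all genes, and Nog was higher, beside 29.8%. Smad7, among these 7, turned to a share 0.169 percentage points higher in MMPhigh under the stricter cell filter. Under the looser filter, with cells thinned to 1000 UMIs, the fractions did not overlap for 5 genes. The share of all genes was not computed in that setting, so nothing is read from this count.

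Within classes the comparison asked whether cells of 1 named class differed between the fractions, which need not be like cells. It could be made for the 7 classes that reached 20 cells in all libraries, which leaves out endothelial-like cells, of which MMPhigh had 15 and 14. In all non-endothelial classes tested, RNA of endothelial markers moved with the fraction. As a share of the level in endothelial-like cells of the same library, the 12 markers summed to 12.9% to 23.1% in the mesenchymal-like, macrophage-like, megakaryocyte-like and neural classes of MMPlow and to 0.350% to 7.06% in MMPhigh, and 12 of 12 were lower in both MMPhigh libraries. Since the endothelial-like cells of MMPlow held 264 CPM of Id3, 80.3 of Id1, 44.0 of Smad6 and 23.1 of Bmp4, a fall of these genes in another class has this value beside it, and its part in each result was not tested.

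In mesenchymal-like cells 4 of 9 tested genes were called, beside 19.1% of all genes, 3 higher (7.28% of all genes) and 1 lower (11.8% of all genes) in MMPhigh. Id1 rose from 73.4 and 78.4 CPM to 93.9 and 104 CPM (log2 difference 0.44, SE 0.11, edgeR adjusted p = 0.0114). Id2 rose from 102 and 111 CPM to 149 and 158 CPM (log2 difference 0.58, SE 0.10, edgeR adjusted p = 0.00162), and Bmp4 from 51.2 and 51.0 CPM to 67.6 and 64.0 CPM (log2 difference 0.41, SE 0.11, edgeR adjusted p = 0.0219). None of these groups overlapped, and the direction is opposite to that of Bmp4 and Id1 over all cells. The summed endothelial markers fell in the same sums from 814 and 688 CPM to 44.3 and 52.4 CPM, with Robo4 at 0 in both MMPhigh libraries. Without MMPlow 1, Id1 (edgeR adjusted p = 0.154) and Bmp4 (edgeR adjusted p = 0.148) were no longer called, and without MMPlow 2 the p of Bmp4 was 0.11. Both calls were also lost by DESeq2 (adjusted p = 0.0827 and 0.183), under the stricter cell filter (edgeR adjusted p = 0.141 and 0.113) and in thinned cells (edgeR adjusted p = 0.0727 and 0.741), and that of Bmp4 at clustering resolution 2 (edgeR adjusted p = 0.0891).

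Bmper fell in mesenchymal-like cells from 110 and 102 CPM to 50.1 and 61.0 CPM (log2 difference -0.86, SE 0.12, edgeR adjusted p = 0.000241), with no overlap. The call was lost under the stricter cell filter (-0.21, edgeR adjusted p = 0.320), where the mean of MMPlow was 65.3 instead of 106 CPM, and at clustering resolution 0.5 (-0.094, edgeR adjusted p = 0.538). The class was not the same mixture in both fractions. Of its cells, the Bmper-rich Col2a1-led cluster made up 51.4% and 49.97% in MMPlow and 41.6% and 38.9% in MMPhigh, the Acta2-led cluster 17.9% and 18.8% against 6.33% and 5.03%, and the Bmper-poor Tmem132c-led cluster 30.7% and 31.2% against 52.0% and 56.0%. Tests within single clusters were therefore added after the data had been seen. Within the Col2a1-led cluster Bmper stood at 175, 154, 100 and 142 CPM in MMPlow 1, MMPlow 2, MMPhigh 1 and MMPhigh 2 and was not called (log2 difference -0.40, SE 0.15, edgeR adjusted p = 0.115). Within the Tmem132c-led cluster it stood at 4.57, 7.85, 5.50 and 6.00 CPM (log2 difference -0.09, SE 0.45, edgeR adjusted p = 0.937). The Acta2-led cluster, with 14 and 15 MMPhigh cells, was not tested.

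In the same cluster tests Id1 was not called, at 0.36 (edgeR adjusted p = 0.413) in the Col2a1-led and 0.35 (edgeR adjusted p = 0.157) in the Tmem132c-led cluster. In the Col2a1-led cluster 2 of 9 genes were called, beside 9.1% of all genes, and both were higher in MMPhigh. Bmp4 rose from 39.5 and 45.2 CPM to 71.8 and 63.1 CPM (log2 difference 0.67, SE 0.16, edgeR adjusted p = 0.0129), and without MMPlow 1 (0.59, edgeR adjusted p = 0.127) and by DESeq2 (adjusted p = 0.161) it missed the threshold. Id2 rose from 104 and 117 CPM to 159 and 182 CPM (log2 difference 0.65, SE 0.13, edgeR adjusted p = 0.00342). In the Tmem132c-led cluster edgeR called 0 of 9 genes, beside 10.2% of all genes, with Id1, Id2 and Smad7 at an unadjusted p under 0.05, and DESeq2 called 0.

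The Wt1-led cluster gave the largest change of Bmper. It is unnamed, had 535, 637, 99 and 123 cells in MMPlow 1, MMPlow 2, MMPhigh 1 and MMPhigh 2, and 4 of 9 genes were called in it, all higher in MMPhigh, beside 9.56% of all genes. Bmper stood at 52.6 and 64.1 CPM in MMPlow and at 152 and 146 CPM in MMPhigh. Both MMPhigh values were above both MMPlow values (log2 difference 1.38, SE 0.14, edgeR adjusted p = 7.8e-05). This call remained without each library in turn, at 1.25 to 1.53. The endothelial marker sum in this cluster was 749 and 644 CPM in MMPlow and 63.4 and 57.6 CPM in MMPhigh, and endothelial-like cells of MMPlow held 3.69 CPM of Bmper.

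Id2, Id3 and Smad6 rose in the same cluster. Id2 stood at 142 and 150 CPM against 249 and 270 CPM (log2 difference 0.86, SE 0.12, edgeR adjusted p = 0.000695), and its call remained without each library in turn. Id3 stood at 266 and 258 CPM against 447 and 406 CPM (log2 difference 0.74, SE 0.12, edgeR adjusted p = 0.00207). Smad6 stood at 64.6 and 59.1 CPM against 104 and 81.6 CPM (log2 difference 0.60, SE 0.16, edgeR adjusted p = 0.0319). The groups did not overlap for any of the 3. Without MMPlow 1 or MMPlow 2, Id3 came to an edgeR adjusted p of 0.0523 and 0.0592 and Smad6 to 0.173 and 0.272, and DESeq2 did not call Smad6 (adjusted p = 0.234). Bmp4, at 45.5 and 52.9 against 59.9 and 82.7 CPM, was not called (log2 difference 0.59, edgeR adjusted p = 0.0578), nor was Id1, at 83.3 and 83.4 against 99.6 and 102 CPM (log2 difference 0.31, edgeR adjusted p = 0.162).

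**Figure D4:**
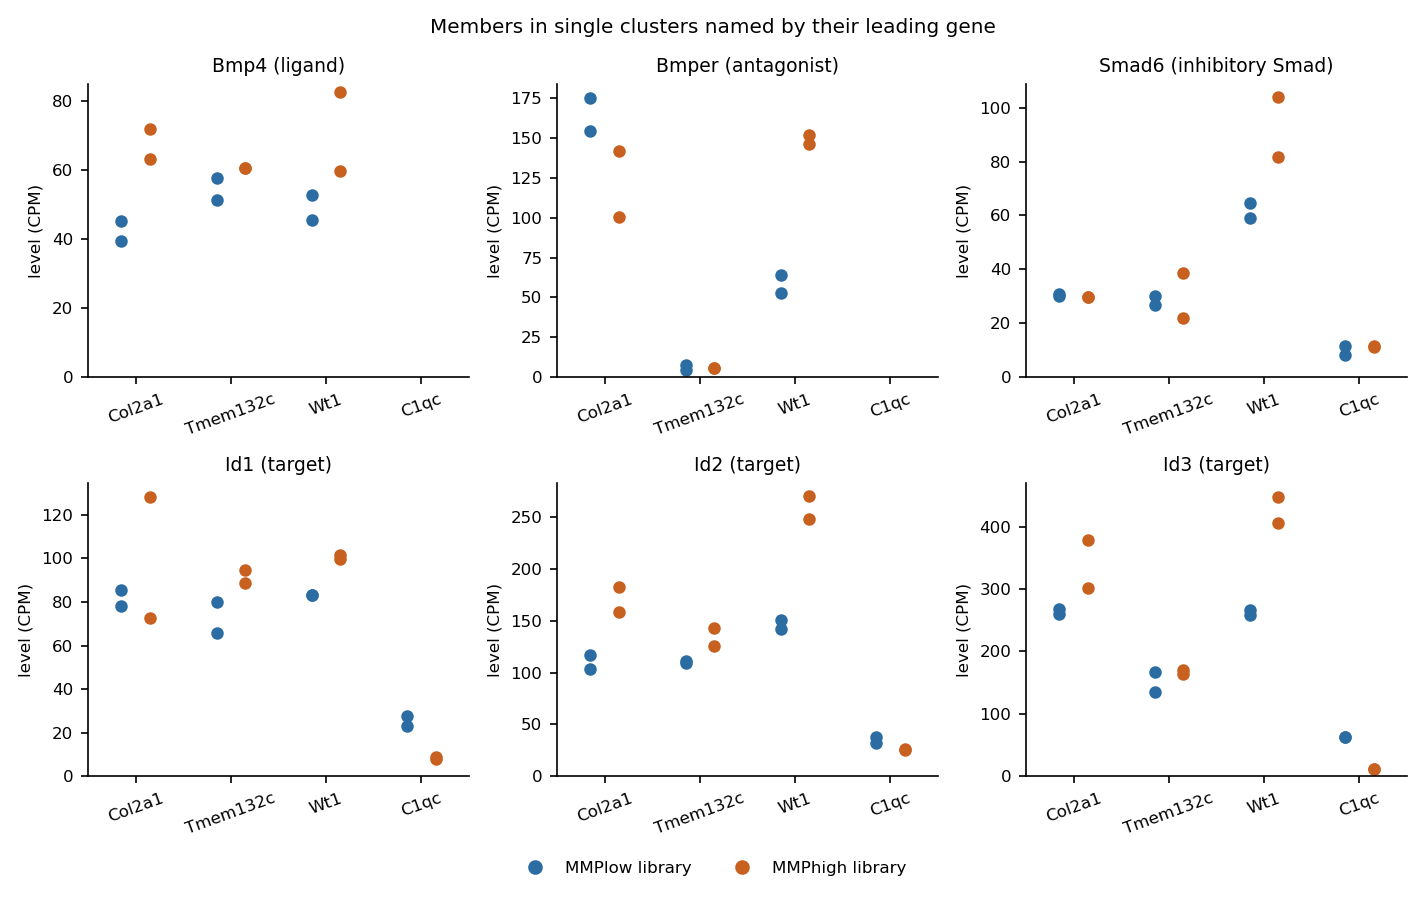
Levels of Bmp4, Bmper, Smad6, Id1, Id2 and Id3 in CPM in each library, within the clusters led by Col2a1, Tmem132c, Wt1 and C1qc; dots are libraries, and Bmp4 and Bmper were too low to test in the C1qc-led cluster. Bmper is at 152 and 146 CPM in MMPhigh against 52.6 and 64.1 CPM in MMPlow in the Wt1-led cluster.

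In macrophage-like cells 5 of 8 tested genes were called, beside 45.9% of all genes, 2 higher (23.1% of all genes) and 3 lower (22.8%) in MMPhigh. Id1 fell from 39.3 and 38.0 CPM to 10.3 and 7.68 CPM (log2 difference -1.87, SE 0.17, edgeR adjusted p = 1.6e-05). Id3 fell from 69.1 and 72.8 CPM to 17.4 and 10.8 CPM (log2 difference -2.14, SE 0.19, edgeR adjusted p = 2.51e-05), and Bmp4 from 6.73 and 4.06 CPM to 0.158 and 0.418 CPM (log2 difference -3.58, SE 0.51, edgeR adjusted p = 0.000273), the last from 1 and 8 UMIs. Smad7 rose from 35.0 and 31.0 CPM to 59.6 and 45.6 CPM (log2 difference 0.95, SE 0.15, edgeR adjusted p = 0.000468). None of these groups overlapped. Id2 (log2 difference 0.06, edgeR adjusted p = 0.715) and Smad6 (-0.06, edgeR adjusted p = 0.825) were not called. The call of Id3 was lost at clustering resolutions 0.5 (-1.51, edgeR adjusted p = 0.217) and 2 (-1.64, edgeR adjusted p = 0.151), and that of Bmp4 at resolution 2 (-2.09, edgeR adjusted p = 0.0992). Without TMM scaling the median of all genes moved by -0.30, and 1560 genes were higher and 5525 lower against 3060 and 3024 with it, while Id1, Id3, Bmp4 and Smad7 kept their directions and calls.

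The macrophage-like class also changed its mixture, from 86.9% and 78.6% cells of the F13a1-led cluster in MMPlow to 5.22% and 0.771% in MMPhigh, the rest being the C1qc-led cluster. The 12 macrophage markers that define the class summed to 4753 and 5701 CPM in MMPlow and to 10022 and 10381 CPM in MMPhigh. Within the C1qc-led cluster, where 3 of 7 genes were called beside 15.6% of all genes, Id1 still fell, from 23.0 and 27.8 CPM to 8.59 and 7.70 CPM (log2 difference -1.65, SE 0.24, edgeR adjusted p = 1.97e-05). Id3 also fell there, from 63.2 and 63.3 CPM to 12.2 and 10.8 CPM (log2 difference -2.44, SE 0.17, edgeR adjusted p = 2.36e-10). Smad7 rose from 34.5 and 25.8 CPM to 59.3 and 45.6 CPM (log2 difference 0.89, SE 0.20, edgeR adjusted p = 0.00311), and without MMPlow 2 it was not called (0.65, edgeR adjusted p = 0.280). The marker sum of endothelial cells in this cluster was 630 and 577 CPM in MMPlow and 91.4 and 91.8 CPM in MMPhigh. Bmp2, called in the whole class (11 and 9.58 against 11.5 and 12.9 CPM, log2 difference 0.57, edgeR adjusted p = 0.0338), stood at 12.6 and 14.2 against 11.5 and 12.9 CPM in the C1qc-led cluster (log2 difference -0.09, edgeR adjusted p = 0.896). Of 18 alternatives to the test in the whole class, its call remained in 7. It was lost with the direction kept in 9, DESeq2 (adjusted p = 0.221) and no TMM (edgeR adjusted p = 0.284) among them. In 2 the direction turned without a call, namely the C1qc-led cluster alone and thinned cells, at -0.73 (edgeR adjusted p = 0.249).

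In megakaryocyte-like cells 5 of 7 genes were called, all lower in MMPhigh, beside 13% of all genes called in either direction and 7.97% called lower. Id3 fell from 67.6 and 56.0 CPM to 12.4 and 3.54 CPM (log2 difference -3.10, SE 0.36, edgeR adjusted p = 0.000475), with no overlap. Id2 fell from 18.2 and 18.3 CPM to 9.48 and 3.86 CPM (log2 difference -1.51, edgeR adjusted p = 0.0155), and Id1 from 24.0 and 20.5 CPM to 11.7 and 8.04 CPM (log2 difference -1.11, edgeR adjusted p = 0.0219). Bmpr2 came to a log2 difference of -0.82 (edgeR adjusted p = 0.0131) and Smad6 to -1.36 (edgeR adjusted p = 0.0476). The call of Id3 remained without each library in turn. Id1 and Id2 lost theirs without MMPlow 1, MMPlow 2 or MMPhigh 2, Bmpr2 without MMPlow 1 or MMPhigh 2, and Smad6 without any 1 of the 4 libraries. These 4 genes were not called by DESeq2 either (adjusted p = 0.125 to 0.291), nor in thinned cells (edgeR adjusted p = 0.213 to 0.807), and Smad6 not at clustering resolution 0.5 (edgeR adjusted p = 0.0504). The endothelial marker sum fell in these sums from 1167 and 986 CPM to 364 and 377 CPM, with Cldn5 and Robo4 at 0 in both MMPhigh libraries.

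In neural or neural crest-like cells 2 of 9 genes were called, beside 27.8% of all genes, 1 higher (13% of all genes) and 1 lower (14.7%). Id2 rose from 47.7 and 65.7 CPM to 78.8 and 73.0 CPM (log2 difference 0.46, SE 0.14, edgeR adjusted p = 0.0394), but it lost this call in 11 of 20 alternatives, among them DESeq2 (adjusted p = 0.0801), no TMM (edgeR adjusted p = 0.0652), thinned cells (edgeR adjusted p = 0.130) and the fit without MMPlow 1 (0.27, edgeR adjusted p = 0.209), and under the stricter cell filter it came to 0.099 (edgeR adjusted p = 0.598). Id1 fell from 36.5 and 45.9 CPM to 30.9 and 23.9 CPM (log2 difference -0.57, SE 0.17, edgeR adjusted p = 0.0348) and was not called without MMPlow 2 or MMPhigh 2, by DESeq2 (adjusted p = 0.108), at clustering resolutions 0.5 (-0.30, edgeR adjusted p = 0.385) and 2 (-0.0034, edgeR adjusted p = 0.996), or with the BMP genes and the pathway list left out of clustering (-0.40, edgeR adjusted p = 0.219). The Cacna2d3-led cluster made up 39.3% and 37.8% of the class in MMPlow and 78.5% and 76.1% in MMPhigh. In its 3 clusters taken singly, edgeR called 0 of the 9, 8 and 6 genes tested in the clusters led by Cacna2d3, Sox2ot and Cdh6, beside 7.83%, 11.7% and 1.76% of all genes, and Nog was tested in none of them. At an unadjusted p under 0.05 they held 1, 1 and 2 of the genes, and Id1 in the Cacna2d3-led cluster came to 0.42.

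In erythroid-like cells 1 of 3 genes was called, beside 7.7% of all genes in either direction and 5.56% lower, and Id3 fell there from 20.1 and 19.8 CPM to 2.45 and 0.934 CPM (log2 difference -3.97, SE 0.65, edgeR adjusted p = 0.000126). Without MMPhigh 2 it was no longer called (-3.06, edgeR adjusted p = 0.0734), nor at clustering resolution 2 (-0.73, edgeR adjusted p = 0.611), and at resolution 0.5 the direction turned (0.35, edgeR adjusted p = 0.880). The endothelial marker sum of these sums was 479 and 550 CPM in MMPlow and 106 and 93.8 CPM in MMPhigh. The 12 erythroid markers that define the class summed to 162472 and 143484 CPM in MMPlow and to 62590 and 14342 CPM in MMPhigh. The change of Id3 rests on 20 UMIs in MMPlow and 4 in MMPhigh, and the part of either marker change in it was not tested. In muscle progenitor-like cells edgeR called 0 of 7 genes, beside 2.58% of all genes, with 0 at an unadjusted p under 0.05, and in germ cell-like cells 0 of 5, beside 7.27%, with 2, Bmpr2 and Id1. DESeq2 called 0 in both classes. Muscle progenitor-like cells held 81.2 and 89.9 CPM of Id1 in MMPlow and 74.6 and 82.8 CPM in MMPhigh, and Id1 had a log2 difference of -0.05 with an SE of 0.19.

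**Figure D5:**
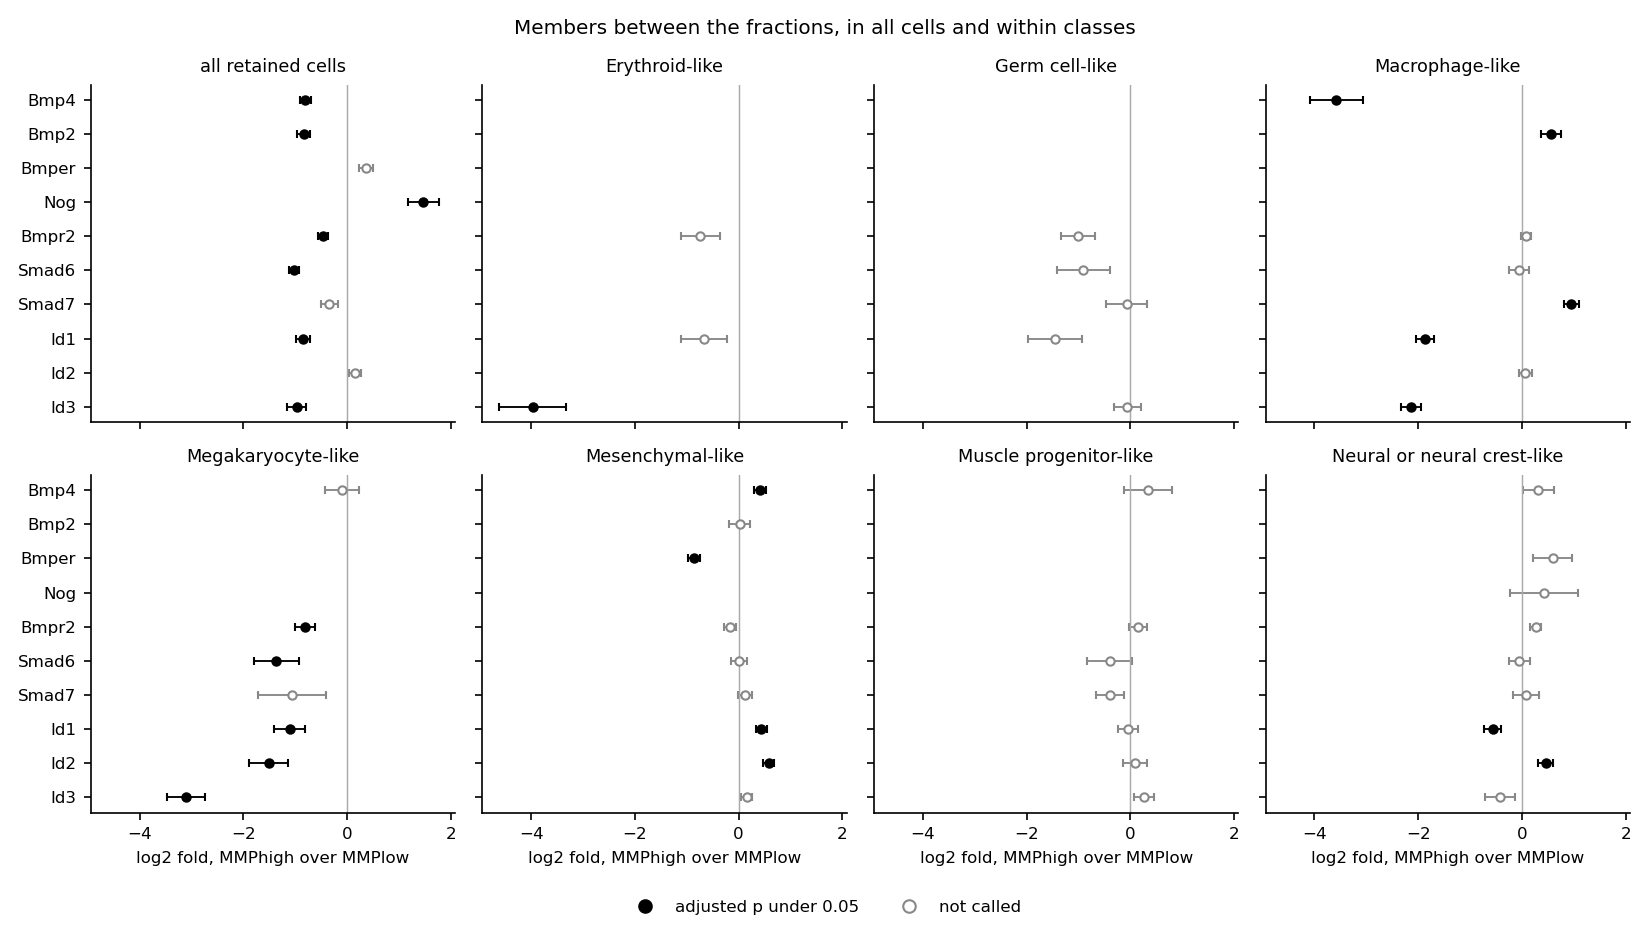
Log2 difference, MMPhigh over MMPlow, of the 10 genes over all cells and within 7 classes; lines are 1 SE from the edgeR fit, filled points have an adjusted p under 0.05, and a missing point was not tested after the filter on low counts. Id1 is lower in macrophage-like and megakaryocyte-like cells (-1.87 and -1.11) and higher in mesenchymal-like cells (0.44).

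Where a gene was called with opposite signs in a pair of classes, the difference of the 2 changes was tested as an interaction in edgeR, a choice made after the calls were seen. Since the genes were picked for opposite calls, that choice itself favours a difference, and nothing is read from the shares of all genes given beside them. Id1 and Bmp4 differed in their change between mesenchymal-like and macrophage-like cells, beside 33.6% of all genes, and Id1 and Id2 between mesenchymal-like and megakaryocyte-like cells, beside 10.7%. Id2 differed between neural and megakaryocyte-like cells, beside 19% of all genes, and Id1 between neural and mesenchymal-like cells, beside 15.2%. The mixture of clusters in the neural, mesenchymal-like and macrophage-like classes also differed between the fractions, and its part was not tested. Taken singly, the neural clusters led by Cacna2d3, Sox2ot and Cdh6 had Id1 at 0.42, -0.34 and 0.46, none called. The Col2a1-led and Tmem132c-led clusters had it at 0.36 and 0.35, also not called. The change of Bmper in the Wt1-led cluster differed from that in mesenchymal-like cells, beside 1.36% of all genes, and the sizes are given in the closing part.

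Of 4 further unnamed clusters, that led by Slc25a21, Ermap and Kcnn4 had 5 of 7 genes called, beside 32.8% of all genes, and all 5 were lower in MMPhigh. Id3 fell there from 48 and 33.6 CPM to 0.891 and 3.15 CPM (log2 difference -3.65, SE 0.32, edgeR adjusted p = 7.22e-05). The endothelial marker sum in it was 661 and 508 CPM in MMPlow and 158 and 150 CPM in MMPhigh. The cluster led by Fabp7 and the histone gene Hist1h1b had 4 of 6 genes called, beside 25.4%, and 3 were higher and 1 lower. In it Id3 rose from 227 and 280 CPM to 405 and 490 CPM (log2 difference 0.92, SE 0.16, edgeR adjusted p = 4.7e-05), and Bmp4 from 14.7 and 15.8 CPM to 36.8 and 42.5 CPM (log2 difference 1.44, SE 0.34, edgeR adjusted p = 0.0015). Id2 came to 0.97 (edgeR adjusted p = 0.00024), and Bmpr2 fell from 75.8 and 78.9 CPM to 41.3 and 39.7 CPM (log2 difference -0.81, SE 0.25, edgeR adjusted p = 0.0148). The endothelial marker sum in the Fabp7-led cluster was 1975 and 2151 CPM in MMPlow and 157 and 343 CPM in MMPhigh. The cluster led by Mndal had Id2 and Id3 lower, at -1.28 and -1.45, beside 13.2% of all genes called, and its endothelial marker sum was 644 and 559 CPM in MMPlow and 160 and 137 CPM in MMPhigh. The part of these marker levels in the changes was not tested. The cluster led by Crabp1 had 0 of 5 called by edgeR, beside 0.0738%, with 0 at an unadjusted p under 0.05.

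A list of 45 further pathway genes gives the surroundings, and the choice of this list was made with earlier results known. Over all cells 42 were tested, and 16 were higher and 11 lower in MMPhigh, beside 27.3% and 26.5% of all genes, with a median log2 difference of 0.30. All 10 receptors on the list were called, 6 higher and 4 lower, beside 53.8% of all genes called. Bmpr1a, a type I BMP receptor, rose from 35.2 and 37.4 CPM to 65.8 and 74.6 CPM (log2 difference 0.98, edgeR adjusted p = 4.5e-05), while Eng, the co-receptor endoglin of endothelial cells, fell from 147 and 130 CPM to 9.55 and 7.34 CPM (log2 difference -4.02, edgeR adjusted p = 8.89e-07). Rgmb, a membrane-anchored co-receptor, rose from 16.0 and 17.0 CPM to 77.3 and 90.8 CPM, the type I receptor Bmpr1b came to 0.55, and the type II receptors Acvr2a and Acvr2b to 0.32 and 1.03; the co-receptor Rgma rose from 12.5 and 12.2 CPM to 30.4 and 37.6 CPM, and the type I receptor Acvr1 came to -0.49. Smad5, one of the BMP-activated Smads, fell by 0.58 on the log2 scale, the ubiquitin ligases Smurf1 and Smurf2 by 0.29 and 0.33, and Crim1, a membrane antagonist, by 0.42.

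In mesenchymal-like cells 10 of 35 tested list genes were higher and 4 lower in MMPhigh, beside 7.28% and 11.8% of all genes, with a median log2 difference of 0.24 against 0.00 for all genes. Of the antagonists, Grem1 rose from 5.37 and 7.60 CPM to 12.5 and 18.7 CPM (log2 difference 1.35, SE 0.26, edgeR adjusted p = 0.00321), and Chrdl1, Nbl1 and Sostdc1 came to 0.77, 0.93 and 1.22. The ligand Bmp7 rose from 10.7 and 15.1 CPM to 26.5 and 25.5 CPM (log2 difference 1.04, SE 0.19, edgeR adjusted p = 0.00207), and the target Msx1 came to 1.17. Bmpr1b, Rgma and Acvr2b came to 0.37, 0.59 and 0.50. The lower genes included Eng, Acvrl1 and Tbx20, at -3.18, -2.59 and -1.43, of which Eng and Acvrl1 are endothelial receptors. In neural or neural crest-like cells 9 of 35 were higher and 4 lower, beside 13% and 14.7% of all genes. The BMP-activated Smad1 and its partner Smad4 came to 0.53 and 0.51 there, Rgmb to 1.09, Acvr2a and Acvr2b to 0.40 and 0.64, Crim1 to 0.64, Smurf1 to 0.57 and Id4 to 1.18. Eng, Bambi and Hey1 were lower, at -4.92, -1.18 and -0.88.

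In macrophage-like cells 5 of 18 were higher and 5 lower, beside 23.1% and 22.8% of all genes. The higher genes were Smurf1, Smurf2, Acvr1, Rgmb and Crim1, at 0.40, 0.40, 0.48, 0.56 and 0.28, and without TMM scaling they came to 0.10, 0.10, 0.18, 0.26 and -0.02, none of them called. Eng fell from 64.2 and 40.9 CPM to 16.6 and 15.8 CPM, and Hey1, Msx1, Bmpr1b and the pseudoreceptor Bambi came to -3.65, -2.49, -2.11 and -0.66. In megakaryocyte-like cells 0 of 18 were higher and 5 lower, beside 7.97% of all genes lower. The lower genes were Eng, Acvr2a, Bambi, Acvrl1 and Hey1, in the sums whose endothelial markers fell from 1167 and 986 CPM to 364 and 377 CPM. In erythroid-like, germ cell-like and muscle progenitor-like cells Eng alone was called, lower in MMPhigh.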

How the data were processed

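The authors deposited whole-number UMI counts per gene and barcode for each library. Per the labels' protocols, the 10x Genomics 3' v3 kit was used with at most 10000 cells targeted per lane. MMPlow 1 held 59928 barcodes, and both MMPlow libraries kept more cells than this target; how is not given in the sources used here. The submitters' processing notes name Cell Ranger 2.1.1 and mm10, while the matrices came from Cell Ranger 7.0.1, per the file headers. The 10 genes and every list were chosen with earlier results of these data known.

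Barcodes with at least 2000 UMIs, at least 1000 genes and under 25% mitochondrial UMIs were kept. Scrublet, run in scanpy 1.11.5, marked 1085, 1066, 0 and 98 doublets, and since it marked 0 in MMPhigh 1, no doublet was removed there. Cells were clustered with Leiden at resolution 1 on 2000 variable genes. Clusters took a class name from marker lists, with thresholds set after the clusters had been seen.

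UMIs were added up for each library, and within it for each class or cluster that had at least 20 cells in all 4. Sums were tested with edgeR 4.0.16 (TMM, filterByExpr, robust quasi-likelihood, two-sided), MMPhigh over MMPlow. CPM was computed here from the deposited counts by scaling each sum to a total of 1000000 UMIs, and log2 differences use TMM-scaled totals. Total counts were 120168395, 102083810, 51800709 and 112739406 UMIs in the 4 libraries. On simulated counts for the sums over all cells, with 20114 genes, 80% of genes changed by a log2 difference of 1 and 100% of those changed by 2 were recovered. For the neural or neural crest-like sums the rates were 67% and 97%. The simulation fixed the spread between libraries in advance and changed only 100 genes by each size, picked among genes with enough counts. In the real sums over all cells 53.8% of genes were called, so these rates do not give the power in these data. The text names all 10 genes and, of the pathway list, all called genes or the 12 with the highest mean CPM, except a list gene that is counted but not reported here by name. The clusters tested singly were chosen after the data had been seen. Gene positions are from GENCODE vM21 on GRCm38. Alternatives were DESeq2 1.42.0, no TMM, other filters on genes and cells, other clustering and doublet removal, thinned cells, equal cells of each class, the replicate block and leaving out each library.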

Additional observations from a re-analysis of the deposited data

Results flagged for a closer look

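Differences of the MMPhigh over MMPlow change between classes were tested as an interaction in edgeR, for genes called in both classes with opposite signs, a choice made after the calls were seen. Picking genes in this way favours a difference, so the sizes are a description and nothing is read from the shares of all genes. Id1 had a log2 change in mesenchymal-like cells that lay 2.32 above that in macrophage-like cells and 1.54 above that in megakaryocyte-like cells. For Bmp4 the change in mesenchymal-like cells was 3.91 above that in macrophage-like cells. Over all genes, 33.6% had a called difference between mesenchymal-like and macrophage-like cells and 10.7% between mesenchymal-like and megakaryocyte-like cells. Id2 changed in mesenchymal-like cells by 2.11 more than in megakaryocyte-like cells, and in neural or neural crest-like cells by 2.06 more, the latter beside 19.0% of all genes called. Id1 in neural or neural crest-like cells came to -1.11 relative to mesenchymal-like cells, beside 15.2% of all genes called. The change of Bmper in the Wt1-led cluster was 2.25 above that in mesenchymal-like cells (SE 0.16), beside 1.36% of all genes called. In all of these classes and in the Wt1-led cluster the endothelial marker level also differed between the fractions, and in the mesenchymal-like, macrophage-like and neural classes the mixture of clusters did too. Their part was not tested.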

How the results depend on the processing

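With equal numbers of cells drawn from each of 7 classes (1390 cells per library, with no endothelial-like, unnamed, epithelial or granulocyte cells), 1 of the 10 genes, 7 of the further pathway genes and 2958 genes in all were called over all cells, against 7, 27 and 10980 as reported. These 2958 genes were 18% of those tested, against 53.8% as reported. With equal cells Bmp4 came to 0.0090, Bmper to -0.13, Bmpr2 to 0.082 and Smad7 to 0.14, and with a filter of 10 CPM in 2 libraries 16 pathway genes and 5972 genes were called. Of the pairs of a gene and a class, 17 were called as reported, 8 by DESeq2, 8 with cells thinned before summing and 11 at clustering resolution 2. Leaving out each library in turn gave 7 to 8 of the 10 genes, 20 to 26 pathway genes, 7883 to 10889 genes and 9 to 19 pairs. With the stricter cell filter Id2 over all cells came to -0.16, and the shares of cells changed by 0.169 percentage points for Smad7 and -0.730 for Id2. With the looser cell filter the fractions did not overlap in that share for 5 genes, a count with no share of all genes computed beside it. Id3 in erythroid-like cells came to 0.35 at resolution 0.5, Bmp2 in macrophage-like cells to -0.73 in thinned cells and -0.090 in the C1qc-led cluster alone, and Id1 in neural or neural crest-like cells to 0.42 and 0.46 in the Cacna2d3-led and Cdh6-led clusters alone. The level of Bmper in mesenchymal-like cells of MMPlow was 65.3 CPM under the stricter cell filter, against 106 CPM as reported. Beyond the values fixed by a setting's own construction, the cause was not tested.

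Over all settings run, genes called ranged from 12 to 944 in erythroid-like cells (530 as reported), 46 to 760 in germ cell-like (494), 3473 to 7085 in macrophage-like (6084), 208 to 2448 in megakaryocyte-like (1509), 895 to 3572 in mesenchymal-like (2703), 98 to 757 in muscle progenitor-like (257) and 286 to 5014 in neural or neural crest-like cells (4039). Without TMM the split of higher and lower calls was 630 and 314 against 147 and 383 in erythroid-like, 198 and 302 against 292 and 202 in germ cell-like, and 304 and 1150 against 585 and 924 in megakaryocyte-like cells, with median shifts of 0.21, -0.15 and -0.14. The calls of Id1 over all cells, of Id1 and Smad7 in macrophage-like cells and of Id3 in megakaryocyte-like cells held in every alternative that could be fitted. A call was lost with its direction kept in 7 of 19 alternatives for Bmp4, 6 of 19 for Id1, 4 of 19 for Bmper and 1 of 19 for Id2 in mesenchymal-like cells, in 9 of 18 for Bmp2 in macrophage-like cells, in 7 of 16 for Smad6, 5 of 17 each for Id1 and Id2 and 4 of 17 for Bmpr2 in megakaryocyte-like cells, and in 11 of 20 for Id2 and 7 of 20 for Id1 in neural or neural crest-like cells. Erythroid-like and germ cell-like cells could not be fitted under the stricter cell filter, nor germ cell-like cells at resolution 0.5.

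The libraries share replicate numbers across the fractions, but with 2 pairs the numbers are only numbers. Over all cells the correlation of deviations of same-numbered libraries was 0.141. With the replicate block 9 of the 10 genes were called, Bmper at 0.36 (edgeR adjusted p = 0.0254) and Smad7 at -0.36 (edgeR adjusted p = 0.0312) in addition, with 10916 genes, 27 pathway genes and 19 pairs. Genes called in megakaryocyte-like cells moved from 1509 to 2448. Low counts limit what can be read of Nog, with 48 UMIs in MMPlow, and too few cells kept endothelial-like cells from being compared, with 29 in MMPhigh.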
